A study of Mus musculus with 18 samples.

Results

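Among 5 mammary tumours of ErbB2 knock-in mice, the mRNA of Axin2 lay above a common reference RNA in 3 tumours and below it in 2, and the expression profiles of these Axin2-high and Axin2-low tumours were set against each other. The tumours of each group were chosen by the measured Axin2 value itself, the log2 ratio of tumour to reference RNA, averaged over the 2 dye-swapped arrays of each tumour, with 0 as the dividing line. The 5 tumours account for 10 of the 18 arrays of the series and for 5 of its 9 RNA samples. The other RNA samples were 2 normal mammary glands and 2 pools of NIC tumours, each pool made from equal amounts of 5 tumours. All samples came from female FVB/N mice, and RNA was taken from whole flash-frozen tissue, so that each value mixes tumour cells with stroma, vessels and leukocytes. The knock-in (KI) tumours are labelled with the genotype ErbB2 knock-in, the NIC pools only by their name and the glands as normal tissue. The sources used here name no promoter, age or expansion of NIC. KI tumours are numbered 1 to 5 in the order of deposition, which carries no other meaning.

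Canonical Wnt signalling acts through beta-catenin, which in unstimulated cells is held by a destruction complex of Axin, APC, GSK3 and casein kinase and marked for degradation. When Wnt ligands engage Frizzled and LRP receptors, beta-catenin accumulates, enters the nucleus and activates genes together with TCF/LEF factors. Axin2 is one of those genes and encodes a member of the destruction complex, so it is widely read as a feedback reporter of the pathway. In the mammary gland the pathway is known for its part in stem and basal cells and in squamous change of tumours. ErbB2 is a receptor tyrosine kinase that drives mammary tumours when activated or overexpressed.

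The 5 KI tumours were hybridised in both dye orientations on 2-colour arrays, which measured 28919 genes and transcripts. On the KI arrays 95.2% to 98.8% of probes were well above background, and the dye partners of a tumour correlated at r = 0.875 to 0.902 over probes. Tumour 2, an Axin2-high tumour, stood apart from the other KI tumours in several cell type lists. It had the lowest value of the 5 in 29 of 30 fibroblast and matrix genes and in 18 of 23 macrophage genes. Its fast skeletal muscle genes Myh4 and Myl1 read 2.59 and 1.32, where the other KI tumours lay between −0.09 and 0.26 and between −2.60 and −2.42. Counts that moved by over 1.5 times without tumour 2 are given below with and without it, among those recomputed.

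The Axin2 log2 ratio was 2.52 in tumour 4, 2.11 in tumour 5 and 1.37 in tumour 2. It was −0.53 in tumour 3 and −1.61 in tumour 1. Tumours 2 and 3 thus lay nearest to the dividing line from above and from below. Both dye orientations of every tumour fell on the same side of 0; the array closest to the line from below read −0.15, for tumour 3, and the one closest from above 0.94, for tumour 2. The Axin2-high mean was 2.00 ± 0.58 (SD, n = 3) and the Axin2-low mean −1.07 ± 0.77 (SD, n = 2), a difference of 3.07 on the log2 scale. This difference is the basis of the split and is given as a description. Axin2 was measured by 1 probe. Since groups formed from a measured gene are not groups given by the labels, single genes carry a standard error (SE) and no p-value, limma's counts are given for the whole table as a description, and with 3 tumours against 2 an exact two-sided permutation test could not go below 0.2.

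**Figure D1:**
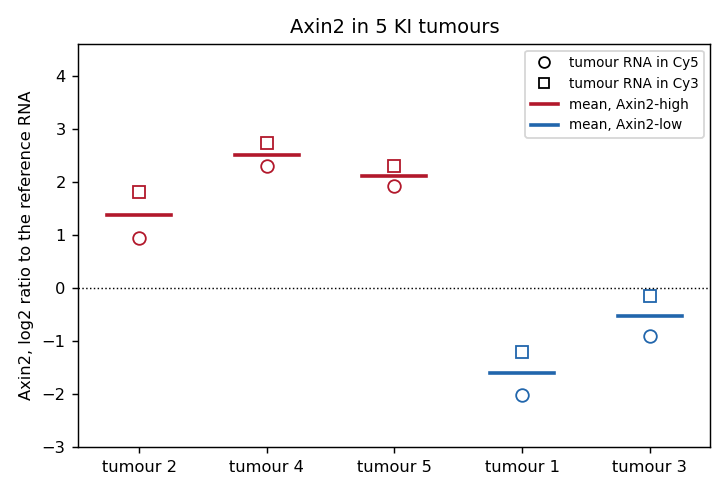
Axin2 in the 5 KI tumours, as the log2 ratio of tumour to reference RNA (vertical axis). Open circles are arrays with the tumour RNA in Cy5, squares arrays with it in Cy3, and bars the mean of the pair; tumours 2, 4 and 5 lie above 0 with both dyes, tumours 1 and 3 below.

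Outside the samples that formed the groups, Axin2 read 1.53 and 1.81 in the 2 normal glands and −3.05 and −2.97 in the 2 NIC pools. The NIC pools lay far below the glands with no overlap. The difference of −4.68 ± 0.14 (SE) passed the test (limma, adjusted p = 0.0078). The glands and pools form a separate table from the KI tumours, so levels are not tested across them.

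Genes were counted as higher or lower with Axin2 when the Axin2-high tumours did not overlap the Axin2-low tumours and the means differed at least 2-fold. By this rule 218 genes (0.754% of 28918, Axin2 left out) were higher and 530 (1.83%) were lower in the Axin2-high tumours. These shares are the background for each list count below, though they also cover unnamed transcripts, which the lists of named genes leave out. Without the fold requirement, 7299 genes (25.2%) showed no overlap. Limma called 0 genes (0%) at an adjusted p under 0.05, and 2563 (8.86%) had an unadjusted p under 0.05. Of the 530 lower genes, 281 were highest in tumour 1 and 249 in tumour 3, and 379 were lowest in tumour 2. Of the 218 higher genes, 162 were lowest in tumour 1. Leaving out a tumour makes the no-overlap part of the rule easier to meet, here and in the lists below. Genes without overlap at any fold rose from 3236 higher and 4063 lower to 5284 and 5711 without tumour 4. By the full rule, the counts without tumour 2 were 283 higher and 414 lower, and without tumour 4 they were 308 and 752. Without tumour 3 they became 572 higher and 851 lower, without tumour 1 they were 234 and 875, and without tumour 5 they were 258 and 831.

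Most genes of the Wnt pathway did not pass the count rule in either direction. Of the 30 other measured Wnt feedback and target genes, 3 were higher (against 0.754% of all genes) and 1 was lower (against 1.83%), and their median difference was −0.03, close to the −0.01 of all genes. The higher ones were Tnfrsf19, Rnf43 and Myc. Without tumour 2 the number higher was 5, and without tumour 1 it was 2.

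Tnfrsf19, a TNF receptor family member that Wnt signalling is known to induce, read 3.20, 4.23 and 3.71 in tumours 2, 4 and 5, against −0.11 in tumour 1 and 2.24 in tumour 3. The groups did not overlap, and the difference was 2.65 ± 0.79 (SE), with 0.66 for the other probe of the gene. Rnf43, a ubiquitin ligase that removes Frizzled receptors from the cell surface, read 3.18, 3.09 and 3.23 in the Axin2-high tumours, 2.70 in tumour 3 and 0.78 in tumour 1. Its difference of 1.43 ± 0.59 (SE) thus came mainly from tumour 1. Myc, the transcription factor, read 0.88, 0.87 and 0.78 in the Axin2-high tumours against −0.39 and −0.75 in the Axin2-low tumours. The Axin2-high values of Myc lay within 0.1 of each other and well above both others, with a difference of 1.41 ± 0.13 (SE) and other probes at 0.40 to 1.33.

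In NIC pools against normal glands, where Axin2 fell, Tnfrsf19 rose by 2.16 ± 0.23 (SE, limma, adjusted p = 0.019). Rnf43 and Myc had differences of 2.69 (limma, adjusted p = 0.053) and 1.70 (limma, adjusted p = 0.080), which did not pass. The other probe of Tnfrsf19 gave −0.53, so its probes disagreed in direction there.

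Cd44, the hyaluronan receptor, was lower with Axin2: it read −1.13, 0.55 and 0.37 in tumours 2, 4 and 5 against 1.74 and 0.93 in tumours 1 and 3, a difference of −1.41 ± 0.62 (SE). Jag1, a Notch ligand, had the largest difference of the list in the negative direction, −1.73 ± 1.15 (SE), but its groups overlapped, with −1.36 in tumour 2 and 2.24 in tumour 4. Most of the other feedback genes differed by little. Lef1, which pairs with beta-catenin at target genes, read −3.55, 0.08 and −2.94 in the Axin2-high tumours against −1.66 and −2.27 in the Axin2-low tumours. Apcdd1, a membrane inhibitor of Wnt signalling, was at 2.31 in tumour 4 and −2.96 in tumour 2, both Axin2-high. Nkd1, a feedback inhibitor that binds Dishevelled, differed by 0.41 on the probe used and by 2.14 on its other probe. Cyclin D1 (Ccnd1) differed by −0.92, Sp5 by −0.30, Lgr5 by 0.18 and Notum by −0.11.

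**Figure D2:**
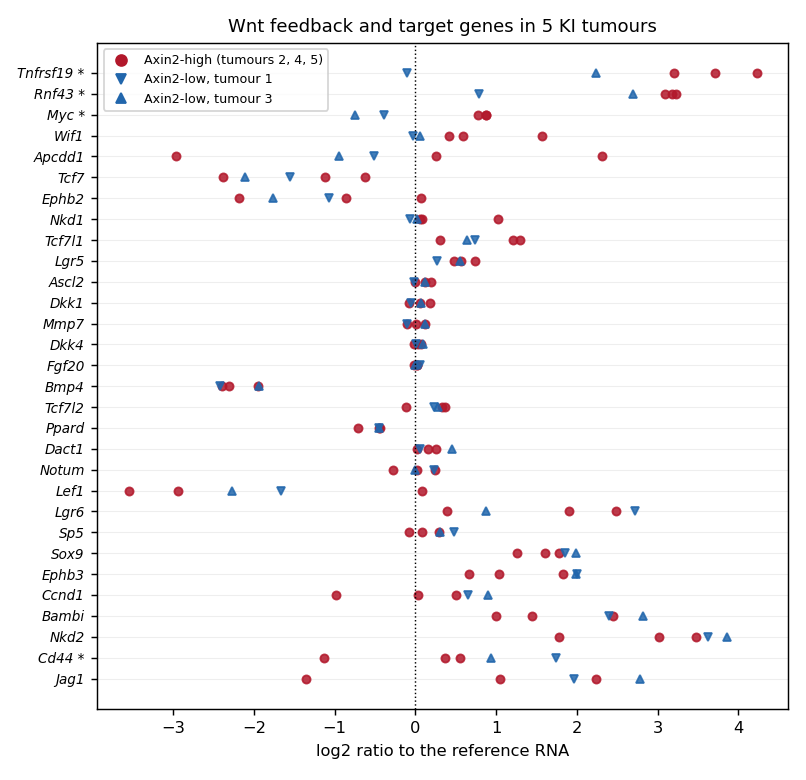
Log2 ratio to the reference RNA (horizontal axis) of 30 Wnt feedback and target genes in the 5 KI tumours, sorted by the Axin2-high minus Axin2-low difference. Red circles are the Axin2-high tumours, blue triangles the Axin2-low tumours and an asterisk marks a gene past the count rule; 3 genes at the top and Cd44 near the bottom carry one, and in most other genes the colours mix.

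Among 25 genes of Wnt ligands and their secretion, 0 were higher and 3 were lower with Axin2, against 1.83% lower among all genes. Wnt7b read −1.02, −0.27 and −0.55 in tumours 2, 4 and 5 against 2.10 in tumour 1 and 0.10 in tumour 3, a difference of −1.71 ± 0.66 (SE). Wnt2, a ligand made mainly by stroma, read 0.23, 0.31 and 0.68 against 2.15 and 1.76, and differed by −1.55 ± 0.20 (SE). Wnt9a differed by −1.17 ± 0.36 (SE), with −0.05 on its other probe. On the probes used, all 3 lay higher in both Axin2-low tumours.

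Of 17 Wnt receptor genes, 1 was higher and 0 were lower, against 0.754% and 1.83% of all genes. Ror1, a receptor tyrosine kinase known to bind Wnt5a, read 0.99, 2.59 and 2.13 in tumours 2, 4 and 5 against 0.07 and 0.25 in tumours 1 and 3. Its difference was 1.74 ± 0.51 (SE), with 0.11 on the other probe. Of 14 secreted inhibitors, 0 were higher and 2 were lower: Sfrp4, with −0.15, −0.19 and 0.83 against 1.26 and 1.72, and Sfrp1, with 1.74, 2.41 and 2.99 against 3.14 and 3.66. Both encode decoys that bind Wnt proteins outside the cell, and they differed by −1.32 ± 0.39 and −1.02 ± 0.42 (SE). Sostdc1, an antagonist of BMP and Wnt signals, was high in tumours 4 and 5 at 3.20 and 2.85 but read −0.03 in tumour 2, so that its groups overlapped.

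Of 31 genes of beta-catenin, its destruction complex and its nuclear partners, 0 were higher and 1 was lower, against 0.754% and 1.83% of all genes. The lower one was Ctnnb1, the gene of beta-catenin. It read 0.17, 0.85 and 0.60 in the Axin2-high tumours against 1.28 and 1.84 in the Axin2-low tumours, a difference of −1.02 ± 0.28 (SE). Its other probes gave −0.83 and −0.35. In NIC pools against normal glands Ctnnb1 differed by 0.25 ± 0.21 (SE, limma, adjusted p = 0.44) on the probe used, and by 1.24 and 1.41 on its other probes. Apc, Axin1 and Gsk3b differed by 0.13, 0.23 and −0.07 between the KI groups. Among 21 cadherin and adherens junction genes, 1 was higher with Axin2: Jup, which encodes plakoglobin, a close relative of beta-catenin, read 2.76, 2.69 and 2.66 against 1.81 and 1.18, a difference of 1.21 ± 0.20 (SE). Cdh1, the epithelial cadherin, lay between 5.30 and 5.70 in all KI tumours.

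Genes of the interferon response were lower in the Axin2-high tumours, with the lowest median of the lists that were not added afterwards. Interferons, released in response to viruses and by activated lymphocytes, act through STAT factors and switch on antiviral proteins, chemokines and antigen processing. Of 29 measured genes, 0 were higher and 21 were lower by the count rule, set against 1.83% lower among all genes, and the median difference was −1.81. The median log2 ratio of the list was 0.11, 0.66 and 0.20 in tumours 2, 4 and 5, against 1.30 in tumour 1 and 2.53 in tumour 3. The list was assembled with earlier results of these data known, so the count describes these tumours and is not independent evidence. The count was between 19 and 27 when each KI tumour was left out in turn, although the no-overlap rule is then easier to meet.

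The chemokines Cxcl9, Cxcl10 and Cxcl11, which attract T cells and natural killer cells through Cxcr3, were among the genes that differed most. Cxcl10 read −2.21, −1.81 and −1.23 in tumours 2, 4 and 5 against 2.40 and 2.50 in tumours 1 and 3. Its difference of −4.20 ± 0.31 (SE) was the lowest of all genes measured. Cxcl11 was near 0 in the Axin2-high tumours, at −0.08, −0.01 and 0.04, and read 5.25 in tumour 1 and 2.57 in tumour 3, a difference of −3.93 ± 0.82 (SE). Cxcl9 read 0.76, 0.60 and 0.67 against 4.31 and 3.52, a difference of −3.24 ± 0.25 (SE).

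Antiviral genes followed the same split with another order of the Axin2-low tumours. Rsad2, which encodes viperin, read −1.004, −0.22 and −0.62 in tumours 2, 4 and 5 against 2.33 in tumour 1 and 3.21 in tumour 3, a difference of −3.38 ± 0.37 (SE). Ifit1, a sensor of foreign RNA, read 0.63, 1.21 and 0.20 against 2.07 in tumour 1 and 4.29 in tumour 3. Isg15, a ubiquitin-like modifier, read −0.12, 0.82 and −0.33 against 1.66 and 3.25. Tumour 3 was the highest of the 5 in 24 of the 29 genes, while tumour 1 was highest in 4, namely Irf1, Gbp2, Cxcl9 and Cxcl11.

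The signalling genes Stat2 and Irf1 were lower with Axin2, with differences of −1.97 and −1.10. Irf7, the regulator of type I interferon genes, read 3.52 in tumour 3, but 1.27 in tumour 1 lay below 1.93 in tumour 4, so its groups overlapped. The immunoproteasome genes Psmb8 and Psmb9 differed by −1.16 and −1.54 without overlap. The only member of the list with Axin2-high tumours above both Axin2-low tumours was Ifi27, at 0.46, under the fold requirement.

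**Figure D3:**
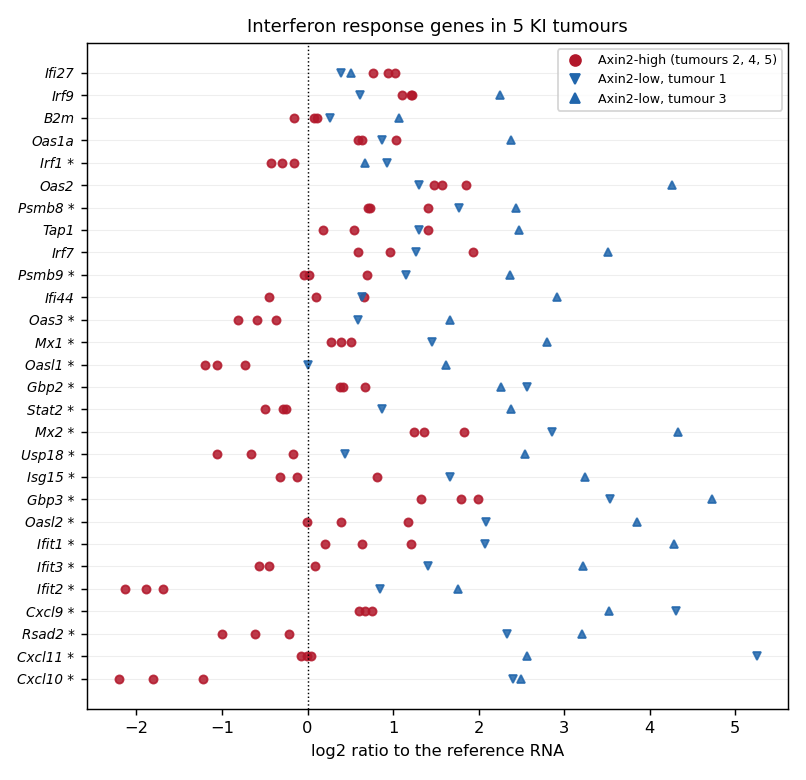
Log2 ratio to the reference RNA (horizontal axis) of 28 of the 29 interferon response genes in the 5 KI tumours, sorted by the Axin2-high minus Axin2-low difference. Red circles are the Axin2-high tumours, downward triangles tumour 1 and upward triangles tumour 3; 20 of the genes drawn carry an asterisk for passing the count rule, and tumour 3 is farthest right in 23.

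The promoters of 4 of these genes are shown because they hold the letters of the interferon-stimulated response element, the site bound by STAT and IRF complexes. The sequences are 80 bases of RefSeq promoters on GRCm38.p6, each on the strand of its gene and 5′ to 3′, with the letters GAAA, any 2 bases and GAAA, or their reverse complement TTTC, any 2 bases and TTTC, in capitals. They were chosen, as was the motif, after the values were seen. They lie on chromosome 5 for Cxcl10 (chr5:92349053-92349132, minus strand), 12 for Rsad2 (chr12:26456523-26456602, minus strand), 4 for Isg15 (chr4:156200847-156200926, minus strand) and 19 for Ifit1 (chr19:34640755-34640834, plus strand).
Cxcl10: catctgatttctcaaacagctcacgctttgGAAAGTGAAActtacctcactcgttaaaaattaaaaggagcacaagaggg
Rsad2: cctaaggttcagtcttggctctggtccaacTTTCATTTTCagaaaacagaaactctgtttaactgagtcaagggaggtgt
Isg15: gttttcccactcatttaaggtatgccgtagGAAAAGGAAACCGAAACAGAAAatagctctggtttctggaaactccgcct
Ifit1: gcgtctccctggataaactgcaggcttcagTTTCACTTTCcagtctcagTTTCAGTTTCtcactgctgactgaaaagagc

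The letters begin 213 bases before the annotated start of Cxcl10, 120 before that of Rsad2, 78 before that of Isg15 (3 overlapping matches) and 104 before that of Ifit1 (2 matches). Over windows of 300 bases from 250 before to 50 after the start, they occurred in 3.99% of the 27025 genes with a promoter in the RefSeq table. Among the 15149 measured genes with one the share was 3.86%. Of the 16 interferon list genes that were lower with Axin2 and had a promoter there, 9 held them. Of the 6 list genes with a promoter that were not lower by the rule, 2 held them. Of all 530 genes lower with Axin2, 339 had a promoter in the table and 12.4% of these held the letters, against 2.63% of the 152 higher genes with one. The 12.4% includes the 9 interferon list genes. The TCF/LEF core letters CTTTGAT and CTTTGAA were searched on both strands, as ATCAAAG and TTCAAAG too. They occurred in 9.88% of all genes with a promoter and in 8.47% of the 15149 measured ones. Of the higher and lower genes with a promoter, 6.58% and 7.67% held them. Of 21 Wnt feedback and target genes with a promoter 4 held them, and the window of Axin2 did not. A match is a description of the letters only.

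Related immune gene families were also lower with Axin2 in part. All measured guanylate-binding and immunity-related GTPase genes, a family of interferon-induced proteins that attack intracellular pathogens, were gathered after their values were seen, and 12 of 16 were lower with Axin2, against 1.83% of all genes. Tgtp1 read −0.38, 0.41 and 0.44 in tumours 2, 4 and 5 against 3.19 and 3.43, a difference of −3.15 ± 0.30 (SE), with −0.98 on its other probe. Gbp4 and Gbp8 differed by −2.89 ± 0.52 and −2.68 ± 0.42 (SE), with −2.99 and −2.23 on their other probes. Members of this family are similar in sequence and their probes may cross-hybridise. Of 40 major histocompatibility genes, also gathered afterwards, 4 were lower: Cd74, H2-DMb1, H2-M3 and H2-Q8, by −1.71, −1.27, −1.31 and −1.37, and H2-K1 differed by −0.13.

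Leukocyte markers are given beside these values. Of 23 macrophage and monocyte genes, 0 were higher and 5 were lower with Axin2: Cd163, Fcgr1, Arg1, Ctss and Aif1. Among all genes 1.83% were lower. The median of that list was 0.87, 1.30 and 1.96 in tumours 2, 4 and 5 against 2.41 and 2.23 in tumours 1 and 3. Cd163, a scavenger receptor of tissue macrophages, read 0.37 in tumour 2, 1.48 in tumour 4 and 3.26 in tumour 5 against 3.35 and 3.54 in the Axin2-low tumours. Without tumour 2 the count of lower macrophage genes was 2 and without tumour 5 it was 9. The pan-macrophage genes Adgre1 and Csf1r overlapped between groups, with differences of −0.61 and −0.36.

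Of 22 lymphocyte and natural killer genes, 2 were lower with Axin2, against 1.83% of all genes, and the list's median difference was −0.03. Without the fold requirement, 9 of the 22 were lower without overlap and 0 were higher, against 14.1% and 11.2% of all genes. Cxcl13, a B cell chemokine, read −0.06, 0.09 and 0.81 against 3.29 in tumour 1 and 1.48 in tumour 3. Nkg7, a granule protein of cytotoxic cells, differed by −1.04 ± 0.37 (SE). The T cell genes Cd3d and Cd3g were lower without overlap by −0.79 and −0.66, under the fold requirement, while Cd3e, Cd4 and Cd8a lay between −0.02 and 0.05. Of 17 neutrophil genes, 0 passed the rule in either direction, against 2.59% of all genes. In whole tissue, fewer cells of a type and less RNA per cell cannot be told apart, and the part of leukocytes in the interferon values was not tested.

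In the samples not used for the split, the interferon list behaved otherwise. Between NIC pools and normal glands 8 of its 29 genes rose and 2 fell, against 8.79% and 9.8% of all genes, although Axin2 fell. Irf7 rose by 3.97 (limma, adjusted p = 0.0078), Isg15 by 3.15 (limma, adjusted p = 0.033) and Ifit1 by 2.63 (limma, adjusted p = 0.018). Cxcl9 fell by 2.88 (limma, adjusted p = 0.0091), and Cxcl10 with −1.32 (limma, adjusted p = 0.062) did not pass. Tgtp1, Gbp4 and Gbp8 fell by 3.27, 4.43 and 4.47 (limma, adjusted p = 0.0078 to 0.0083). Their other probes gave −0.22, −2.09 and −2.115, so the fall of Tgtp1 was near 0 on its other probe. Cxcl11 differed by −0.19 (limma, adjusted p = 0.37). Of the 16 GTPase genes 6 fell and 0 rose.

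Connective tissue genes were lower in the Axin2-high tumours as a list, but with overlap. The median difference of 30 fibroblast and matrix genes was −0.78, and every member had a negative difference, from −1.28 to −0.28. Of these, 4 passed the rule: Fap, Loxl1, Fn1 and Serpinf1. The other probes of Fn1 ran from −1.25 to −0.04, and that of Serpinf1 gave −0.34. Fap, a surface protease of activated fibroblasts, read 1.94, 1.77 and 2.49 in tumours 2, 4 and 5 against 2.73 and 3.96, a difference of −1.28 ± 0.45 (SE). The list medians were −1.49, −0.82 and 0.26 in tumours 2, 4 and 5 against −0.38 and 0.26 in tumours 1 and 3, so that tumour 5 matched tumour 3. Without tumour 2 the count was 1 of 30, without tumour 1 it was 15, without tumour 4 it was 7 and without tumour 5 it was 21. The part of connective tissue in the other differences was not tested. In the list of EMT regulators Vim, the intermediate filament of mesenchymal cells, differed by −1.31 ± 0.50 (SE), with −0.08 on the other probe.

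Of 21 endothelial genes, 1 was lower, against 1.83% of all genes, and the list median was −0.50. It was the VEGF receptor gene Flt1, at −1.05 ± 0.39 (SE), with other probes from −1.06 to −0.0004. Of 21 hypoxia and glycolysis genes, 3 were lower with Axin2, against 1.83% of all genes. Adm, a vasoactive peptide induced by low oxygen, read −2.69, −0.19 and −1.54 against −0.16 and −0.11, so the groups were separated by 0.03. The glucose transporter Slc2a1 read −2.32, −0.45 and −1.28 against −0.21 and −0.27. Tumour 2 was the lowest of the 5 in 16 of these 21 genes. Without it 0 passed, without tumour 1 the count was 6 and without tumour 4 it was 7.

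Epithelial genes split gene by gene. Aldh1a3, a retinaldehyde dehydrogenase of luminal progenitor cells, read 0.70, 1.64 and 1.81 in tumours 2, 4 and 5 against 4.57 and 4.06, a difference of −2.93 ± 0.40 (SE) with −1.16 on the other probe. Ly6a, the surface antigen Sca-1, which interferon is also known to induce, read −1.69, 0.45 and −0.01 against 2.30 and 1.53. These were the 2 members past the rule among 24 luminal genes, against 1.83% lower among all genes. The luminal markers Elf5, Kit, Ehf and Epcam differed by −0.26, −0.17, 0.00 and −0.04, and Elf5 lay between 5.30 and 5.75 in every KI tumour.

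Of 22 basal and myoepithelial genes, 2 were lower, against 1.83% of all genes. Cav1, the main protein of caveolae, read −2.56, −2.09 and −2.06 in the Axin2-high tumours and −1.43 in tumour 3, but 1.31 in tumour 1, a difference of −2.18 ± 0.86 (SE). Of 31 squamous and hair follicle genes, 2 were higher with Axin2, against 0.754% of all genes. Krt15, a keratin of basal and hair follicle stem cells, read 1.32, 2.26 and 2.54 in tumours 2, 4 and 5 against −0.80 and 0.13, a difference of 2.37 ± 0.49 (SE). Calml3, an epithelial calmodulin-like protein, read 3.64, 3.26 and 3.01 against 0.56 and 1.94, a difference of 2.05 ± 0.47 (SE). The cornified envelope genes Ivl, Lor and Flg differed by −0.56, 0.03 and −0.11.

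Milk protein genes differed in both directions. Wap, the whey acidic protein, read 3.99, 2.72 and 3.45 in tumours 2, 4 and 5 against 1.23 and 0.45, a difference of 2.55 ± 0.46 (SE), and its other probe gave 3.18. Lalba, the regulator of lactose synthesis, read 3.70, 2.995 and 3.42 against 0.99 and 2.57. Lao1, an amino acid oxidase of milk, read 5.14 in tumours 2 and 5 and 1.76 in tumour 4 against 0.18 and 0.71. Csn2 and Csn1s2a, both caseins, went the other way. Csn2 read 5.16, 6.06 and 5.18 against 7.15 and 7.24, with saturated spots on 6 arrays. Its difference of −1.73 shrank to −0.32 with normexp and loess ratios and to −0.57 without the arrays of the smaller image extraction day, with overlap in both. Csn1s2a differed by −1.57, while the caseins Csn1s1, Csn1s2b and Csn3 did not pass, at −1.46, 1.15 and −0.34. In all, 3 of 16 milk genes were higher and 2 were lower, against 0.754% and 1.83% of all genes.

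Enzymes of fatty acid synthesis were higher with Axin2 in part. A list of 22 such genes was built after several of them had been seen among the higher genes, so its count of 6 higher and 0 lower supports nothing. Acly, which makes cytosolic acetyl-CoA, read 2.38, 0.67 and 3.23 against 0.53 and 0.10, with 0.31 as the difference on its other probe. Acaca, the acetyl-CoA carboxylase, read 2.02, 0.80 and 1.44 against −0.37 and 0.48, a difference of 1.37 ± 0.46 (SE), but its other probes gave −0.20 and 0.06. The regulator Srebf1, the elongase Elovl6, Idh1 and Thrsp, a lipogenic nuclear protein, differed by 1.26, 1.16, 1.30 and 1.15. Fasn, the fatty acid synthase, differed by −0.03. Tumour 1 was the lowest of the 5 in 5 of the 6 genes, and without it 1 gene passed the rule. Acsl1, an acyl-CoA synthetase, and Thrsp were the 2 of 25 adipocyte genes past the rule, both higher, while Adipoq, Fabp4 and Plin1 differed by −0.74, −0.81 and 0.02, with overlap.

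**Figure D4:**
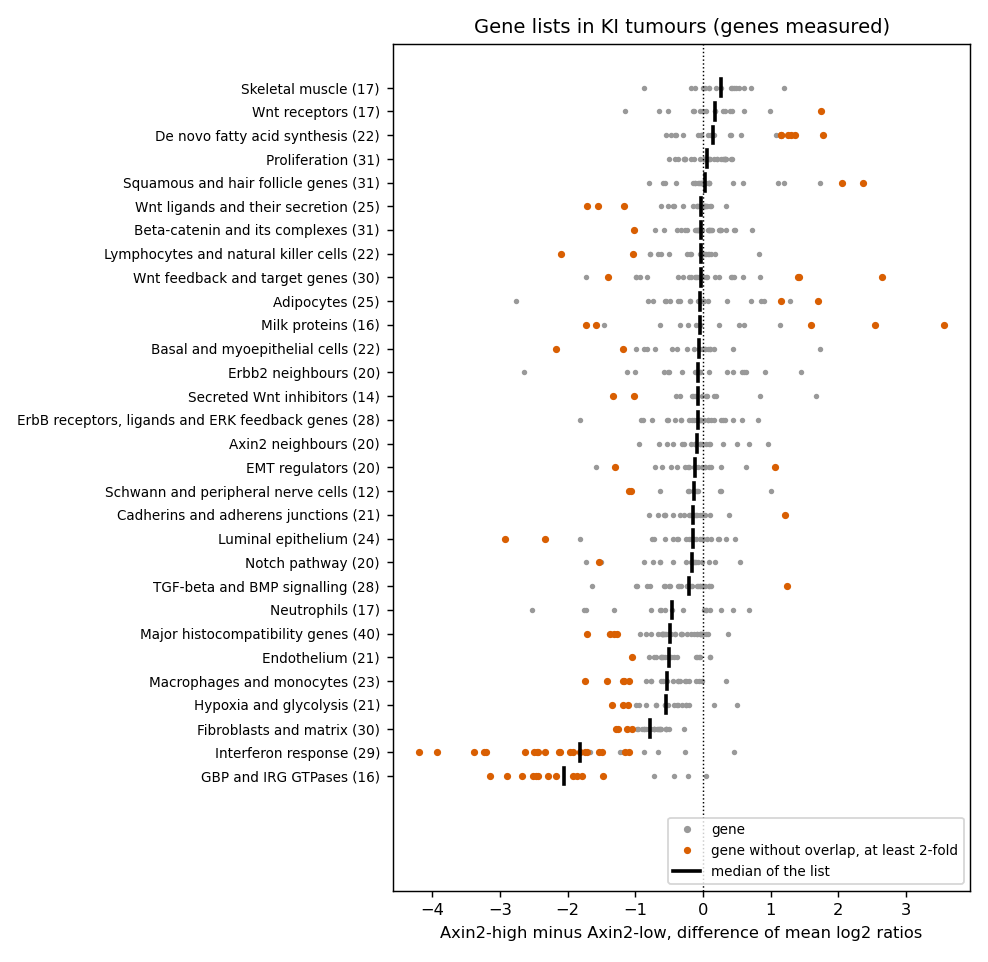
Axin2-high minus Axin2-low difference of mean log2 ratios (horizontal axis) of each gene in 30 gene lists, with the number of genes measured in parentheses. Grey dots are genes, orange dots genes past the count rule and black bars list medians; the interferon and GTPase lists lie farthest to the left, at medians of −1.81 and −2.05, and the Wnt lists are centred near 0.

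Outside the lists, the gene with the largest positive difference was the uncharacterised 2310057J18Rik, at 4.99, 5.42 and 4.51 in tumours 2, 4 and 5 against 0.10 and 1.21, a difference of 4.32 ± 0.44 (SE). Serpinb11, a member of the serpin family, read 3.71, 4.02 and 3.28 against −0.11 and 0.41, a difference of 3.52 ± 0.28 (SE). Stx19, a syntaxin of epithelia, differed by 2.998 ± 0.40 (SE), the meiotic recombination gene Rec114 by 3.98 ± 0.78 (SE) and the amino acid transporter gene Slc6a15 by 3.37 ± 1.15 (SE), with 0.08 on its other probe. All of these lay above the reference in each Axin2-high tumour, with Rec114 nearest to it: it read 0.00 in tumour 4 against −2.93 and −2.23 in the Axin2-low tumours.

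Further genes outside the lists were higher with Axin2. P3h4, which takes part in collagen hydroxylation, read 1.93, 0.88 and 0.87 against −1.87 and −2.07. Cldn8, a tight junction claudin, read 4.06, 5.54 and 5.81 against 3.63 and 1.47. Ttpa, the vitamin E transfer protein, and Myo5c, a myosin of secretory epithelia, differed by 2.43 and 2.40, with 2.71 and 0.10 on their other probes. Smpdl3b, a membrane phosphodiesterase, differed by 2.56, Arfgef3 by 2.90 and Cyp1b1, a cytochrome P450, by 2.60. The other probes of Arfgef3 ran from 0.07 to 2.60 and that of Cyp1b1 gave 0.61. Without tumour 1 the differences of Arfgef3 and Cyp1b1 were 1.175 and 1.67, and without tumour 3 that of Arfgef3 was 4.63.

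Among the genes lowest with Axin2, several were set by tumour 1. Wt1, a zinc finger transcription factor, read 1.49 in tumour 1 and between −4.43 and −3.94 in the 4 others. Prl2c5, of the prolactin family, read 2.76 in tumour 1 and between −2.38 and −1.81 in the others. The natural killer receptor genes Klra1 and Klra7, which have near-identical relatives, read 1.35 and 1.13 in tumour 1, against −1.71 and −2.02 in tumour 3 and −2.79 or lower in the Axin2-high tumours. In these 4 genes tumour 3 lay nearer to the Axin2-high tumours than to tumour 1.

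In others both Axin2-low tumours lay clearly above the Axin2-high tumours, although Eps8, Prkg2 and Ankrd1 were below the reference in all 5. Eps8, an actin regulator and substrate of ErbB-family kinases, read −5.17, −3.53 and −3.80 in tumours 2, 4 and 5 against −0.58 and −1.52, a difference of −3.11 ± 0.61 (SE), with −0.81 on its other probe. The cyclic GMP-dependent kinase gene Prkg2 read −4.98, −4.26 and −4.78 against −1.90 and −1.57, a difference of −2.94 ± 0.25 (SE), but its other probe gave −0.02. Mamdc2 read −0.12, 0.87 and 1.01 against 3.15 and 3.54. Ankrd1, a nuclear ankyrin-repeat protein, and Slc39a8, a zinc transporter, each differed by −2.64, with −0.88 on the other probe of Slc39a8.

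The genes that went with Axin2 were then followed in NIC pools against normal glands, where Axin2 fell and where the values did not enter the split. Of 28919 genes there, 2542 rose (8.79%) and 2835 fell (9.8%) at an adjusted p under 0.05 in limma. Among cell type lists, 20 of 25 adipocyte, 11 of 30 fibroblast and matrix and 11 of 21 endothelial genes fell, with 0 rising. Of 31 proliferation genes 24 rose and 0 fell. The part of tissue composition in the NIC minus normal differences was not tested. Of the 218 genes higher with Axin2, 65 rose (29.8%) and 25 fell (11.5%), with a median of 0.59. Of the 530 lower genes, 47 rose (8.87%) and 148 fell (27.9%), with a median of −0.43, where all genes had −0.06. Most called genes therefore did not follow Axin2: the more frequent direction was up for genes higher with Axin2 and down for genes lower with it. When either NIC pool was left out, 0 genes passed in limma, with 6400 and 6977 at an unadjusted p under 0.05.

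On the probe used, 25 higher genes fell and 47 lower genes rose, and so kept the direction of Axin2 in both comparisons. Both counts lay near the shares over all genes. Of the higher genes 11.5% fell, against 9.8% of all genes, and of the lower genes 8.87% rose, against 8.79%. Among those with a RefSeq symbol, Fetub, Ntrk2, Amy1 and Acaca had the largest NIC minus normal differences. Cyp1b1, Acsl1, Dll1 and Slc2a1, named above or below, also kept it. Ntrk2, a neurotrophin receptor, read 2.49, 4.40 and 4.42 in KI tumours 2, 4 and 5 against 1.59 and 1.52, and fell in NIC pools by 4.17 ± 0.11 (SE, limma, adjusted p = 0.0078), from 5.92 and 5.90 to 1.65 and 1.83. The amylase gene Amy1, which has near-identical copies, was higher with Axin2 by 1.89 ± 0.41 (SE) and fell in NIC pools by 4.16 (limma, adjusted p = 0.0078), while its other probes ran from −0.40 to 0.14 in KI tumours and from −5.02 to 0.46 in NIC minus normal. Acaca fell by 3.85 (limma, adjusted p = 0.042), with −0.35 and −0.17 on its other probes. With the mean of a gene's probes the KI groups overlapped for both, at 0.54 for Amy1 and 0.41 for Acaca. The other probe of Ntrk2 gave 2.41 in KI tumours and −3.91 in NIC minus normal. Fetub, a secreted fetuin, was lower with Axin2 by −1.61 ± 0.56 (SE) and rose in NIC pools by 5.26 (limma, adjusted p = 0.036).

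**Figure D5:**
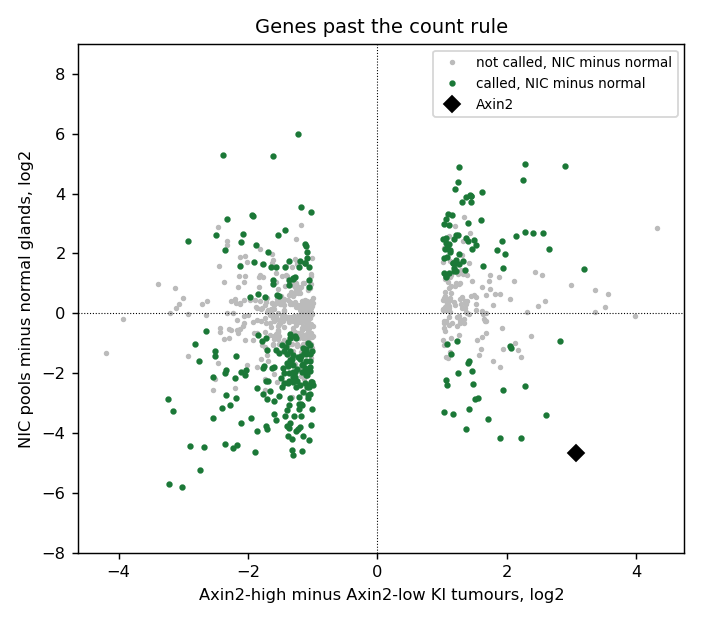
The 748 genes past the count rule, each by its Axin2-high minus Axin2-low difference among KI tumours (horizontal axis, log2) and its NIC minus normal difference (vertical axis, log2). Green dots were called in NIC minus normal and the diamond is Axin2, at 3.07 and −4.68; the genes lower with Axin2 have more green dots below 0 (148) than above (47), and the higher genes more above (65) than below (25).

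Several groups of genes had no member past the count rule. Over all genes 2.59% passed it in either direction, so lists of this size would hold few or none at that share. Erbb2 read 0.70, 0.81 and 0.30 in tumours 2, 4 and 5 against 0.83 and 1.01, a difference of −0.32 ± 0.18 (SE), with 0.00 and 0.64 on its other probes. On the probe used the groups did not overlap, but the difference was under the fold requirement. Of 28 genes of ErbB receptors, their ligands and ERK feedback, 0 passed the rule in either direction; Areg, a ligand of the EGF receptor, read −1.80 in tumour 2 and between 1.48 and 2.98 elsewhere. Of 31 proliferation genes, 0 passed, and the list's median difference was 0.06, with Mki67 at 0.08. Of the 20 nearest measured genes around Axin2 on chromosome 11, 0 passed, and their differences ran from −0.95 for Prkca to 0.97 for 1700012B07Rik. Of the 20 around Erbb2, 0 passed and in 0 were the groups without overlap, against 25.2% of all genes without overlap. Chromosome 11 as a whole held 23 higher (1.55%) and 30 lower genes (2.03%) of 1480 with a RefSeq symbol. Counted likewise, the autosomes and X ran from 0% to 1.81% higher and from 1% to 3.19% lower. The all-gene shares of 0.754% and 1.83% also cover unnamed transcripts and are not a like base here.

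Single members passed in the remaining lists. In the Notch list Dll1, a Notch ligand, read 1.03, 1.29 and 1.33 in tumours 2, 4 and 5 against 2.52 and 2.99, a difference of −1.54 ± 0.18 (SE). In the list of TGF-beta and BMP signalling Id2, an inhibitor of helix-loop-helix factors, read 0.48, 0.61 and 0.27 against −1.72 in tumour 1 and 0.15 in tumour 3. Tgfb2, a TGF-beta ligand of the EMT list, was higher with Axin2 by 1.07 ± 0.36 (SE). In the Schwann and nerve list Ncmap and Pmp22, both myelin proteins, were lower by −1.09 and −1.06, with 0.02 on the other probe of Pmp22. Of 17 skeletal muscle genes 0 passed the rule, against 2.59% of all genes.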

How the data were processed

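Deposited log2 ratios, which per the submitters' processing notes involved RMA, were used as the authors left them; no source used here describes further steps. Their direction (sample over reference) was set against the scanner's log10 ratios and spot intensities of the KI arrays, deposited by the authors, with Feature Extraction A.7.5.1 named in the file headers. The KI values correlated with loess ratios at r = 0.982 to 0.988. Label fields fixed the dye of each array, since some labelling protocols name the opposite one; the log2 scale and spot layout of the gland and NIC table were taken to be those of the KI table. Dye partners were averaged, giving 1 value per RNA sample; p-values reflect only how these RNA samples vary. Genes were represented by the probe of highest mean signal. Limma 3.58.1 (R 4.3.3) gave the standard errors and the tests. The fits were tested on simulated data.

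The members, gene lists and named genes were chosen with earlier results of these data known. Named were Axin2, Erbb2, Ctnnb1, all Wnt feedback genes past the count rule with the 4 largest differences of that list, and up to 4 genes per other list. Also named were the 12 largest and 12 lowest outside the lists without overlap in either dye. The last 4 had the largest NIC minus normal differences among genes called there in the direction of Axin2. Other genes were named after their values were seen. Alternatives changed the ratios, the dye, the probe choice, the scaling, the filter, the fold and the tumours kept. Some results are not reported here.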

Additional observations from a re-analysis of the deposited data

Results flagged for a closer look

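Among the 5 KI tumours, 6 values of 79 named genes lay far from the 4 others, measured as the gap to the nearest tumour over the whole range. In unselected genes chance alone marks about 1 in 20. Most named genes were chosen for a split of 3 tumours against 2, so the 6 cannot be weighed against that rate. Tumour 1 gave 5 of the 6. Wt1 read 1.49 there against −4.43 to −3.94 elsewhere, and Prl2c5 read 2.76 against −2.38 to −1.81. Rnf43 read 0.78 against 2.70 to 3.23, Thrsp 1.88 against 3.50 to 4.002 and Id2 −1.72 against 0.15 to 0.61. In tumour 2, Arg1, an arginase of tumour macrophages, read 1.87 against 4.37 to 4.90. The Axin2-high minus Axin2-low differences of these 6 genes therefore rest largely on 1 tumour each.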

How the results depend on the processing

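Of 76 named genes past the count rule, all kept their sign under the 12 alternatives run for each. The sign could not reverse when a tumour was left out, because these genes were chosen for groups without overlap. The 12 largest and 12 lowest outside the lists were also chosen without overlap in either dye, which fixed their single-dye signs. Under all 7 alternatives that kept every tumour, 63 genes stayed without overlap. With a tumour left out, the no-overlap rule is easier to meet. Leaving out 1 KI tumour at a time gave 234 to 572 higher and 414 to 875 lower genes, and 0 to 4 limma calls, the 4 without tumour 3. Higher genes numbered 140 with normexp and loess ratios and 129 among genes above the median signal. At least 4-fold left 33 higher, 92 lower and 12 interferon genes; no overlap alone gave 3236 and 4063. Limma called 958 genes with all 10 arrays and the tumour as a random block, 700 with a dye term added and 19 with all 9 RNA samples in 1 fit, where tumour arrays or other groups add degrees of freedom. For NIC minus normal the count of 5377 became 2048 on Cy3 arrays alone, 10106 with all 9 RNA samples, 3430 above the median signal and 0 to 4236 when 1 gland or pool was left out, 0 without either pool. No paired analysis was possible because the groups compared share no animals and replicate numbers are names only. Precision is limited by 3 tumours against 2, by 1 probe for Axin2 and by saturated spots for Csn2.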
